A study of Mus musculus with 4 samples.

Results

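The regions described here are stretches of open chromatin in mouse embryonic stem cells that had an accessibility peak in every library except the knockout at day 5. They were found by pooling the 4 deposited peak lists, joining peaks that overlapped by at least 1 bp, and keeping the joined regions with a peak from both genotypes at day 0 and from wild type at day 5 but none from the knockout at day 5. This gave 5603 of 328597 joined regions (1.71%). Among the 164833 regions listed in both genotypes at day 0, called day 0 shared regions below, they made up 3.40% (95% exact binomial interval, 3.31 to 3.49). The regions were chosen by the presence or absence of listed peaks in the 4 libraries, so the absence of a knockout peak at day 5 is how these regions were defined and not a result. Intervals cover counting error only.

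The cells were blastocyst-derived stem cells, either wild type or lacking both Cdc14a and Cdc14b (labelled Cdc14ab KO). Each genotype was sampled on day 0, in medium with the cytokine LIF, and on day 5 of neural differentiation, after LIF had been replaced by N2B27 medium with EGF and FGF2. All 4 libraries are labelled clone 3, and the labels do not say whether wild type and knockout clones have a common origin, so a difference between clones and an effect of the knockout cannot be told apart. Cells were grown over feeders, which were removed on gelatin-coated plates, and nuclei were profiled by single-nucleus ATAC-seq from a multiome assay, with 1 library per group and no replicate. The peak lists hold coordinates and no heights or counts. A region with no listed peak may therefore have been closed, open in too few nuclei, or too shallowly read, and these cannot be told apart.

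Cdc14a and Cdc14b encode phosphatases that remove phosphate from sites written by cyclin-dependent kinases. Accessible regions far from genes include enhancers, which tend to be used in particular cell types, whereas promoters rich in CpG are open in most cells. When stem cells leave pluripotency for a neural fate, enhancers of the pluripotency network close and enhancers near neural regulators such as the Pax, Sox and Pou3f families become or continue to be accessible.

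The lists held 189571 to 227878 peaks and covered 162.5 to 197.3 Mb, with the fewest in wild type at day 5 and the most in the knockout at day 5. All 7 core pluripotency genes with a listed start, among them Pou5f1, Sox2 and Nanog, had a start peak in both day 0 libraries, and 4 had one in wild type and 5 in the knockout at day 5. Of 21 neural progenitor genes, 18, 19, 19 and 18 had a start peak, in the order used throughout for 4 values (wild type day 0, knockout day 0, wild type day 5, knockout day 5), so neural starts were already listed in the stem cells. For 8 fibroblast genes, which would mark feeder cells, the counts were 4, 7, 5 and 5 in the same order. The wild-type day 5 library stood apart at Y-linked starts: Eif2s3y, Uty and Ddx3y had a peak there and in no other library, and Kdm5d had none in any. Wild type at day 0 had none of these peaks, so a difference in cells between the wild-type libraries and a change with differentiation cannot be told apart, here or wherever a region is called listed in wild type at day 5. The part of this library's difference in the results below was not tested, and values without any requirement on it are given beside the first results it touches.

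Only 140 of the regions lay over an annotated transcription start, and 5 of these starts are shown as examples, with no claim that they stand for the rest. Pax6 encodes a homeodomain and paired-domain factor of eye and forebrain progenitors, and Rarg a retinoic acid receptor. Dbx1 and Lhx3 encode homeodomain factors of spinal cord and motor neuron patterning, and Cdx4 a posterior homeodomain factor. Pax6 and Rarg are shown because they were on gene lists. Dbx1, Lhx3 and Cdx4 were chosen after their values were seen. The 200 bases before each start are printed 5′ to 3′ on the strand of the gene, from RefSeq on GRCm38.p6, whose coordinates are those of mm10. Capitals mark a match to 1 of 18 short motifs on either strand.
Pax6, chr2:105668696-105668895, plus strand, no motif: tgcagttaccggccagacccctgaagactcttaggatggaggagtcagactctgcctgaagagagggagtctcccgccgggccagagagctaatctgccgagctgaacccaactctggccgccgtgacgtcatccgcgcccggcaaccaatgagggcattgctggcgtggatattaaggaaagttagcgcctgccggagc
Rarg, chr15:102246501-102246700, minus strand, GATA and E-box letters: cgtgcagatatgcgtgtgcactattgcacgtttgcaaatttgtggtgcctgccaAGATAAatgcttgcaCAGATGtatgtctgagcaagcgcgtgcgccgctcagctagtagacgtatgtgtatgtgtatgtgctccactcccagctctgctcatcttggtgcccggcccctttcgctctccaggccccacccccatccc
Dbx1, chr7:49636836-49637035, minus strand, NFY and SOX letters: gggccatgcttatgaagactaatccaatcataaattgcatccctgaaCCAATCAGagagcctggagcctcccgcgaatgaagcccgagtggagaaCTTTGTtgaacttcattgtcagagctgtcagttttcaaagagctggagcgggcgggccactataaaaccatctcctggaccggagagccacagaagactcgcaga
Lhx3, chr2:26206576-26206775, minus strand, no motif: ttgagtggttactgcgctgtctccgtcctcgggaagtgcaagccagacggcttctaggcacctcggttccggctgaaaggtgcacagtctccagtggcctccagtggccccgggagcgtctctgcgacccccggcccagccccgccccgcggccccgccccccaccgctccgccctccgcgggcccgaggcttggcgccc
Cdx4, chrX:103321198-103321397, plus strand, octamer letters: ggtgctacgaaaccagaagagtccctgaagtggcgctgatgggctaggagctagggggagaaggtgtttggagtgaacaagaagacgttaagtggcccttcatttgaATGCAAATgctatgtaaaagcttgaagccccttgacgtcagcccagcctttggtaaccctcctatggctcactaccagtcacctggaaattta

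At the Pax6 start, the listed peak ran from 105668307 to 105669181 on chromosome 2 in day 0 wild type cells, from 105668263 to 105669192 in day 0 knockout cells and from 105668334 to 105669170 in day 5 wild type cells. The nearest knockout day 5 peak began at 105669450, inside the gene, 257 bp beyond the region. The 3 listed peaks thus covered nearly the same bases, and the distance to the knockout day 5 peak was shorter than a peak. At Rarg the region held 402, 435 and 806 bp of peak in the same order, and a knockout day 5 peak lay 42 bp upstream of it. Rarg has another start in a region listed in all 4 libraries. Dbx1 had 810, 800 and 840 bp and a knockout day 5 peak 544 bp away, and Lhx3 had 905, 952 and 873 bp with a peak 425 bp away. The single Cdx4 start had 702, 1010 and 704 bp of peak, and the nearest knockout day 5 peak lay 4088 bp away, so it was the only one of these 5 starts with no knockout peak within 1 kb. Pax6 has 2 listed starts, and the other lay neither in a described region nor in one listed in all 4 libraries.

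**Figure D1:**
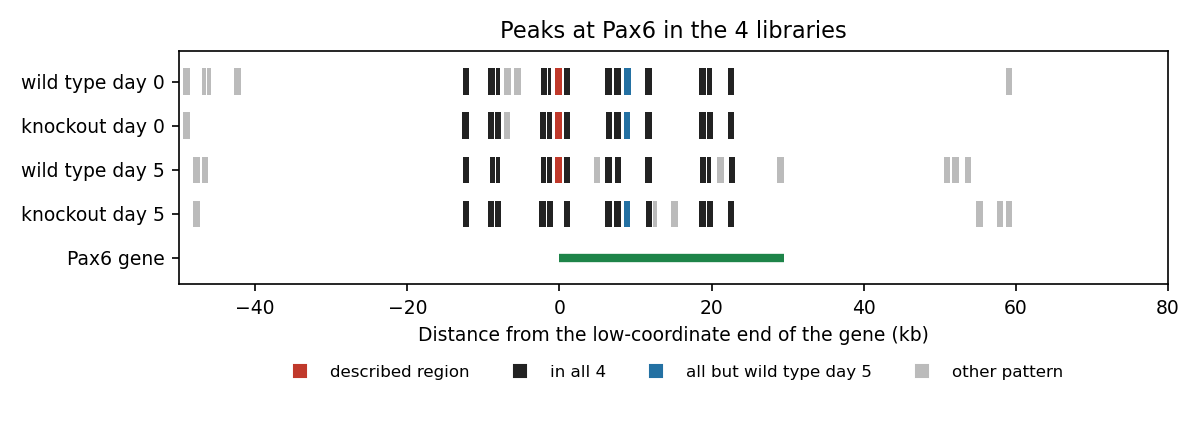
Peaks in the 4 libraries around Pax6, by distance from the low-coordinate end of the gene in kb (its transcription start is there). Red bars mark the region over the start, listed in 3 libraries and missing from the knockout at day 5, and black bars mark neighbouring regions listed in all 4, which lie on both sides of it.

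The distance to the missing library's nearest peak says how isolated the absence is. The median gap from a region to the nearest knockout day 5 peak was 1735 bp (interquartile range, 646 to 3865 bp). A knockout day 5 peak lay within 1 kb of 35.1% of the regions, within 5 kb of 82.3% (81.3 to 83.3) and within 20 kb of 96.8%. Most of these regions were thus single sites missing from a neighbourhood with knockout peaks. The same held for the 18815 regions listed at day 5 in neither genotype, with a median gap of 1610 bp to a knockout day 5 peak and 82.9% within 5 kb. In the mirror set, the 29369 day 0 shared regions listed at day 5 in the knockout but absent from wild type, the median gap to a wild-type day 5 peak was 2651 bp and 69.6% had one within 5 kb. The wild-type day 5 list is the shorter one, and its part in these larger gaps was not tested. At the edge of the rule, 111 regions had a knockout day 5 peak within 50 bp without overlap, the closest at 0 bp. On its other side, 15 of the regions listed in all 4 libraries (0.0135%) were kept there by an overlap of 50 bp or less with the knockout day 5 peak, the smallest being 5 bp.

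More day 0 shared regions were absent at day 5 from wild type alone than from the knockout alone. Of the 164833 regions, 67.4% were listed at day 5 in both genotypes, 17.8% in the knockout only, 11.4% in neither and 3.40% in wild type only. The knockout-only regions were 5.24 times as many as the regions described here. This ratio was 2.03 when the 189571 widest peaks of each library were used and 5.14 to 6.07 in the other settings, so the regions described here are the smaller group in each of the 7 settings. With no requirement on wild type at day 5, 24418 regions (14.8%) had a peak in both day 0 libraries and none in the knockout at day 5.

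Peaks in these regions were slightly narrower than in regions listed throughout. The median widths were 859 bp (wild type, day 0), 864 bp (knockout, day 0) and 854 bp (wild type, day 5). In regions listed in all 4 libraries the same libraries had medians of 882, 885 and 882 bp. Day 0 widths in the regions listed later in the knockout only (868 and 875 bp) lay between these, and in those listed in neither (852 and 859 bp) they were lowest. Peak width is the only measure of strength that the lists hold, and the differences are small beside the width of a peak.

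The regions were mostly distal. A transcription start lay inside 2.50% of them (2.11 to 2.94), against 11.9% of regions listed in all 4 libraries, 1.65% of the knockout-only regions and 1.26% of those listed at day 5 in neither genotype. Within 1 kb of a start lay 5.25%, in gene bodies beyond that 52.2% and in intergenic sequence 42.5%. The median distance to a start was 21.1 kb, compared with 16.6 kb for regions listed in all 4 libraries. Within 1 kb of either end of a protein-coding gene lay 8.14% (7.44 to 8.89), against 16.8% of the regions listed in all 4 libraries and 6.05% of the knockout-only regions. With no requirement on wild type at day 5 the share at gene ends was 7.67%. Over all joined regions, 4.94% held a start and 7.35% lay within 1 kb of one. For gene ends within 1 kb the share was 8.96%, and the median distance to a start was 23.2 kb. The distal position is thus shared with joined regions in general, and with both other groups missing from a day 5 library.

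Seen from the other direction, only 0.998% (0.840 to 1.18) of the 14026 day 0 shared regions over a start were absent from the knockout alone at day 5. Away from starts the share was 3.18 to 3.95% in every distance class, from within 1 kb to over 500 kb. The knockout-only share rose from 3.45% over a start to 20.1% at 100 to 500 kb. Inside genes, the share of the described regions was 3.30% in genes under 20 kb and 4.46% (3.94 to 5.04) in genes over 500 kb, and in no gene it was 3.35%. The local number of peaks made less difference, with shares of 3.27 to 3.67% across 5 classes of peak density.

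**Figure D2:**
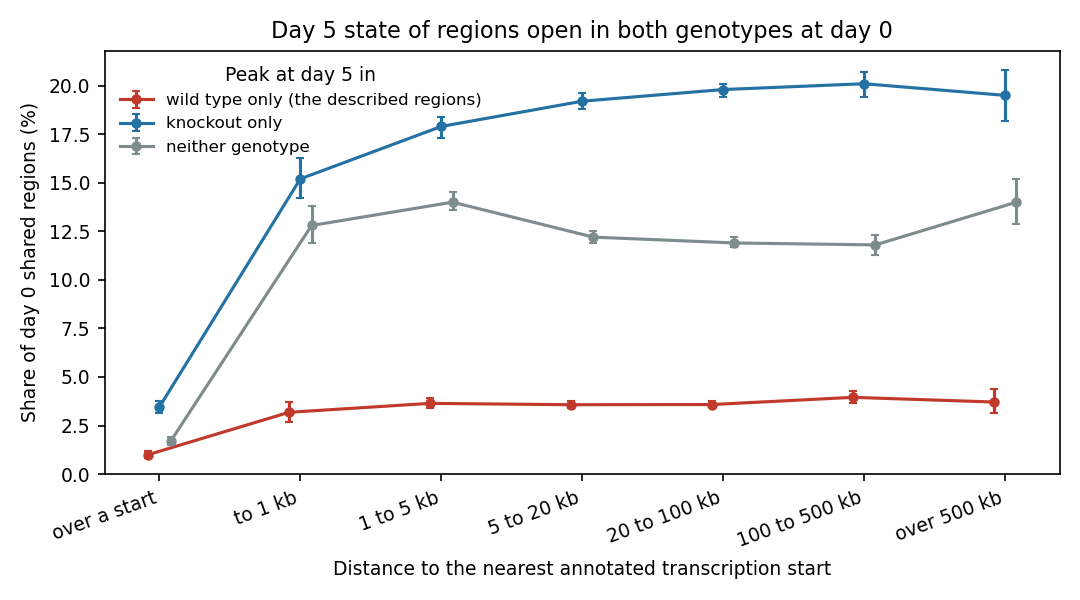
Share of day 0 shared regions (%) listed at day 5 in wild type only (red, the described regions), in the knockout only (blue) or in neither (grey), by distance to the nearest annotated start. Bars are 95% exact intervals, counting error only. The red share is 0.998% over starts and 3.18 to 3.95% elsewhere.

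Across the autosomes and X, the described regions held their highest share of day 0 shared regions on chromosome 2 (4.36%, 4.00 to 4.73), chromosome 11 (4.09%) and chromosome 10 (3.97%). The lowest shares were on X (1.43%, 1.07 to 1.86) and chromosome 5 (2.64%, 2.35 to 2.95). X held 54 of the regions, 0.964% of them (0.725 to 1.26), against 2.35% of the regions listed in all 4 libraries and 2.77% of the knockout-only regions. Regions listed at day 5 in neither genotype also had a low share on X (1.64%, 1.47 to 1.83). The X values rest on the wild-type day 5 library that stood apart at Y-linked starts. On X the knockout-only share was the highest of the chromosomes plotted (21.5%), and on chromosome 2 the lowest (15.6%), so the 2 groups ran in opposite directions there. With no requirement on wild type at day 5, X held 1.49% of the regions. The Y chromosome held 1 region and unplaced contigs 2.

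**Figure D3:**
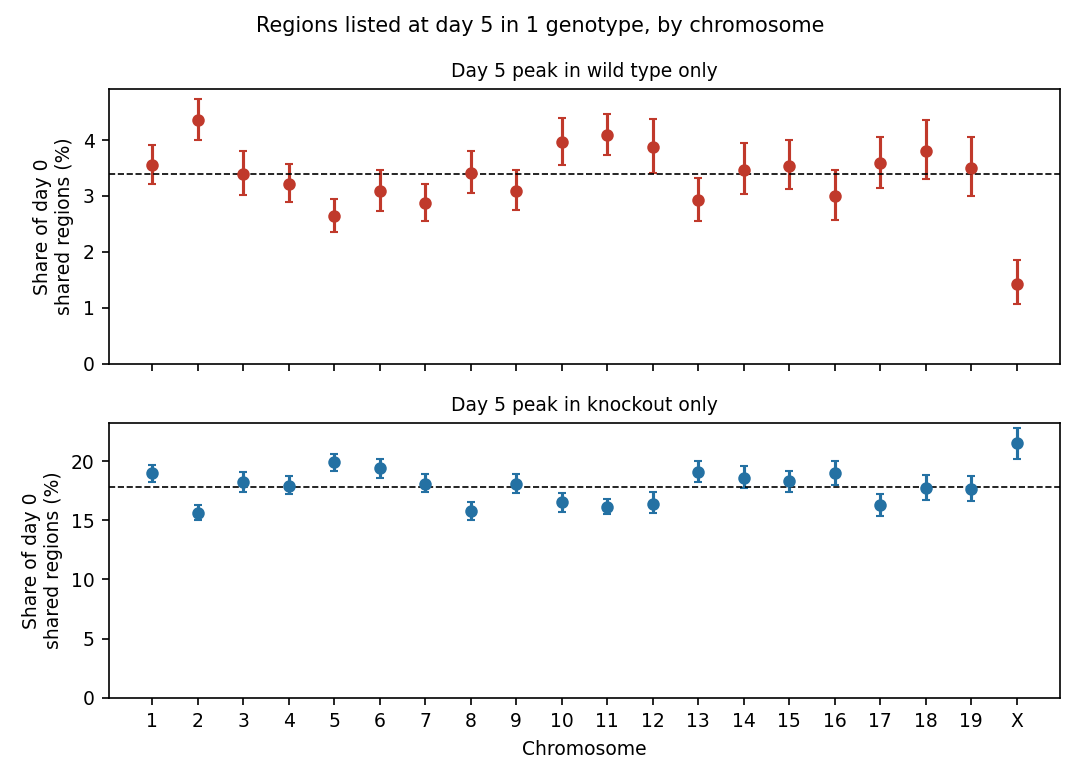
Share of day 0 shared regions (%) listed at day 5 in wild type only (top, the described regions) and in the knockout only (bottom), for each autosome and X. Bars are 95% exact intervals, counting error only, and dashed lines are the genome-wide shares of 3.40 and 17.8%. X is lowest in the top panel (1.43%) and highest in the bottom panel (21.5%).

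Consecutive regions were seldom both described ones, yet somewhat more often than the genome-wide share of 3.40%. After a described region, the next day 0 shared region along the chromosome was also a described one in 266 of 5600 cases (4.75%, 4.21 to 5.34). This share was 3.48% after a region listed in all 4 libraries and 2.80% (2.62 to 3.00) after a knockout-only region. Within 10 kb, 24.9% of the described regions had a region listed in wild type at day 5 alone, against 22.5% of those listed in all 4 libraries, and 25.3% had one listed in the knockout at day 5 alone, against 28.8%. Runs were short: 5085 regions stood alone, 236 runs held 2, 12 held 3 and 2 held 4. A run of 4 lay in Macrod2 (chr2:141225809-141238578), and the 3 runs of 3 with the longest span lay on chromosomes 12, 18 and 8, at Cep192 for the one on chromosome 18.

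Gene loci, taken as the gene with 50 kb on each side, held few of the regions each. Of 21887 protein-coding loci, 7855 (35.9%) held at least 1, 2287 (10.4%) at least 2, 572 (2.61%) at least 3 and 33 (0.151%) at least 5. The median gene length was 58.4 kb in loci with at least 3 and 17.2 kb over all loci, so loci with several were those of longer genes. Of the 572 loci, 214 had more described than knockout-only regions, as did 1185 of all 21887, and choosing loci with several described regions favours this. Counts in a locus are not independent, since loci overlap.

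Loci with many of the regions were mostly long genes with many day 0 shared regions. Aff3, of the AF4 family of transcription regulators, held 7 of 50, Atrnl1, which encodes an attractin-like membrane protein, 7 of 53, and Utrn, which encodes the dystrophin relative utrophin, 7 of 65. Arhgef3, a guanine nucleotide exchange factor, held 7 of 75 and Magi1, a junction scaffold, 7 of 87. Macrod2, Tenm2, Dst and Arhgap26 held 6 each, and Macrod2 encodes an ADP-ribose hydrolase, Tenm2 a synaptic adhesion protein, Dst a cytoskeletal linker and Arhgap26 a GTPase-activating protein. Shorter genes with 5 each were Son (5 of 19), a nuclear speckle protein, Castor1 (5 of 24), an arginine sensor of mTORC1, Cfap157 (5 of 25), a ciliary protein, Spsb1 (5 of 25), a ubiquitin ligase adaptor, and Pnpla1 (5 of 29), an enzyme of skin lipids. At Castor1 the locus held 27, 27, 27 and 22 peaks, and at Son 23, 27, 22 and 19, the knockout at day 5 being lowest in both. It was not strictly lowest in the other 12 loci named in this paragraph, such as Spsb1 (32, 35, 34 and 33) and Magi1 (107, 123, 86 and 114), and the choice of loci by these regions itself favours fewer knockout day 5 peaks. These counts depend on the rule: leaving out regions within 1 kb of a knockout day 5 peak took Dst from 6 to 1, Utrn from 7 to 2 and Cfap157 from 5 to 2, whereas Aff3 had 6 or more in each of the 7 settings.

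By share rather than number, among loci with at least 5 day 0 shared regions, the highest were Olfr110 with 3 of 5, Cst9 with 3 of 7, and Gatad1, Gm52720, Scn2a and Scn9a with 2 of 5 each. Armc1 held 3 of 9, and 2300009A05Rik, Adam7 and Calhm6 held 2 of 6 each. Scn2a and Scn9a encode voltage-gated sodium channels of neurons, and Olfr110 is an olfactory receptor gene in a repeated family, where reads can be lost between copies. Scn2a had 11, 8, 10 and 6 peaks in its locus and Scn9a 10, 8, 19 and 12, so only Scn2a was lowest in the knockout at day 5. The numbers are too small to order these loci.

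Stretches with no knockout day 5 peak at all were rare. The Macrod2 run lay in a stretch of 113 kb within the gene (chr2:141153409-141266418) that held 7, 9, 10 and 0 peaks. Elsewhere the knockout did have Macrod2 peaks at day 5: the gene held 51, 61, 97 and 63 in the same order. This makes 12 stretches with at least 3 described regions and no knockout day 5 peak, among them 23.7 kb at Fndc3b, 32.0 kb at Plxna4, 89.4 kb over Olfr110 to Olfr112 and 19.6 kb at Trps1. In the mirror, 856 stretches held at least 3 knockout-only regions and no wild-type day 5 peak. That set is larger (29369 regions against 5603) and the wild-type day 5 list is shorter, so these counts are not like for like.

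**Figure D4:**
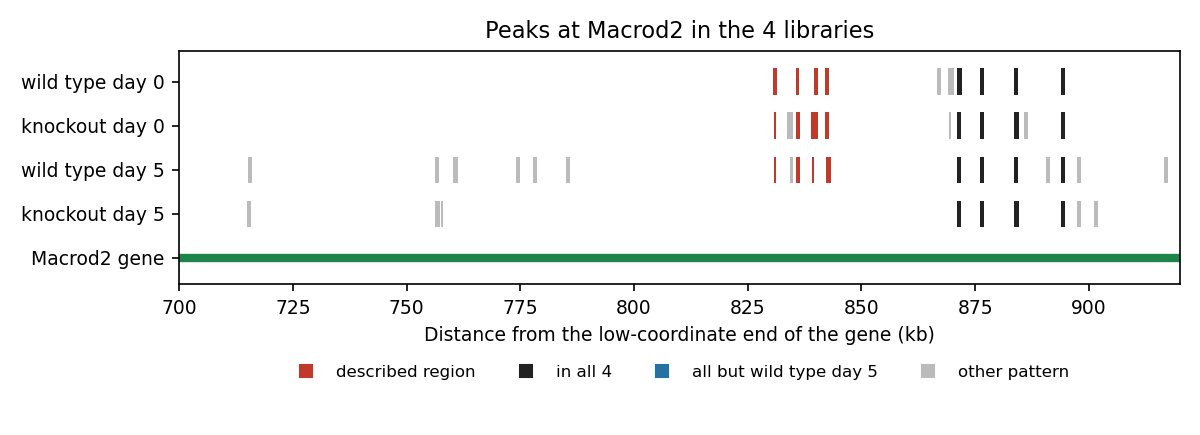
Peaks in the 4 libraries in part of Macrod2, by distance from the low-coordinate end of the gene in kb (the gene, in green, runs on at both sides). Red bars mark a run of 4 described regions, in a stretch of 113 kb with 7, 9 and 10 peaks in the other libraries and 0 in the knockout at day 5.

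The regions were set against 24 gene lists of pathways and cell types, counting day 0 shared regions within 50 kb of a listed gene. The share of described regions lay above the genome-wide 3.40% in 14 lists, its interval lay wholly above it in 3, and in 0 wholly below. Lists share genes and some share regions, and no test was made of them. The 3 were axon guidance, neural progenitor and fibroblast genes. All 3, with the Notch, cell adhesion, formative pluripotency and blood lists, lay above the genome-wide share of the same setting in each of 7 settings.

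Neural progenitor genes had 26 described regions among 462 (5.63%, 3.71 to 8.14), at 14 of 28 genes. Over all protein-coding loci, 35.9% held at least 1. Across the lists, genes with at least 1 ran from 1 of 8 (2-cell-like) to 20 of 29 (axon guidance). Housekeeping (7 of 14), core pluripotency (6 of 12), endoderm (8 of 16) and cell adhesion genes (10 of 20) had the same share of genes as the neural progenitor list. The number of genes thus does not set the neural progenitor list apart from those lists. Knockout-only regions made up 10.4% (7.76 to 13.5) at neural progenitor genes, against 17.8% genome-wide, and 75.8% were listed in all 4 libraries. Neuron genes were close to this, with 11.2% (8.25 to 14.8) and 75.2%. Across the 24 lists the knockout-only share ran up to 20.5%, at core pluripotency genes. Pax7, a paired-domain factor of dorsal neural tube and muscle progenitors, held 5 of 30 with 37, 40, 40 and 39 peaks in its locus, so the total in the knockout at day 5 was no lower than at day 0 in wild type. Its 5 fell to 2 without regions near a knockout day 5 peak. Of the 5, 4 lay in its flanks and 1 in the gene. Meis1, a homeodomain cofactor of Hox proteins, held 4 of 32, all in the gene, where the libraries had 25, 27, 33 and 31 peaks. Notch1, the receptor that keeps progenitors from differentiating, held 3 of 24, and its effector Hes5 2 of 17. Pax6, Sox21 and Sox9, factors of neural progenitors, each had 1 region within 1 kb of a gene end. No described region lay within 50 kb of Sox1, Nes, Hes1, Lhx2, Zic1 or Irx3.

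Axon guidance genes, which encode secreted or membrane-bound cues and their receptors, had 39 described regions among 643 (6.07%, 4.35 to 8.20), at 20 of 29 genes. Their median length was 278 kb, and long genes had a higher share in general. The cues Slit1, Slit2 and Sema6a held 3 each, and the receptors Robo2, Unc5c and Plxna4 also 3 each. Ephb1, a receptor for ephrin-B ligands, held 4 of 22, all in the gene. Its gene body had 24, 22, 35 and 23 peaks, so wild type had more at day 5 than at day 0 and the knockout about as many. The described regions in Ephb1 were 915, 822, 863 and 929 bp wide in wild type at day 0 and had their nearest knockout day 5 peaks 19535, 14726, 22259 and 489 bp away. Plxna4, a semaphorin co-receptor, had 14, 22, 26 and 20 peaks in the gene, and its 3 regions lay within the 32.0 kb stretch without a knockout day 5 peak. Of all the regions, one in Plxna4 (chr6:32583409-32585409) was among the 8 widest, with 1610, 860 and 1763 bp of peak.

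Cell adhesion genes, whose median length was 345 kb, had 23 described regions among 440 (5.23%, 3.34 to 7.74). Lrp1b, a large lipoprotein receptor relative, held 3 of 15, and its locus had 21, 20, 53 and 26 peaks. Nrcam, a neuronal cell adhesion molecule, held 3 of 30 with 33, 35, 49 and 38 peaks. In Lrp1b, Nrcam, Robo2 and Ephb1, which were chosen after their values were seen, wild type at day 5 had the most peaks of the 4 libraries. Peaks that wild type had at day 5 and not at day 0 are by definition outside the described regions.

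Fibroblast genes had 14 described regions among 191 (7.33%, 4.07 to 12), at 10 of 15 genes. Twist1, a mesenchymal transcription factor, held 2 of 6, and Col3a1, a fibrillar collagen gene, 2 of 7. The locus of Twist1 had 7, 6, 9 and 6 peaks and that of Col3a1 8, 12, 15 and 10. These genes also mark feeder fibroblasts, and start peaks of the list were fewer in wild type than in the knockout at day 0 and equal at day 5 (4, 7, 5 and 5 of 8). Their part in this share was not tested. The blood and endothelium list, which would mark other cells, had 8 among 233 (3.43%).

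Formative genes mark the step between naive pluripotency and lineage choice, and 12 of their 313 regions were described ones (3.83%, 2.00 to 6.60). Pou3f1, a POU factor of early neural commitment, held 4 of 30, and Otx2, a homeodomain factor of epiblast and forebrain, 3 of 21. All 7 of these lay in flanks and none in the gene, at distances from a knockout day 5 peak of 39 to 6087 bp. At Pou3f1 the locus had 33, 31, 32 and 31 peaks, so nearly as many in the knockout at day 5 as in the other libraries.

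Shares at core and naive pluripotency genes could not be told from the genome-wide one. Core pluripotency genes had 5 described regions among 258 (1.94%, 0.632 to 4.46), and 53 knockout-only ones (20.5%). Pou5f1, Sox2 and Lin28a had none. Nanog held 1 of 28, with 6 knockout-only regions, and Sall4 1 of 32, with 8. At Dppa2 a described region touched the gene, and at Prdm14 one lay 918 bp from an end. Naive pluripotency genes had 11 among 383 (2.87%), with 3 of 30 at Stat3, the effector of LIF, and one 934 bp from Klf2. Genes of Polycomb and Trithorax complexes had 8 among 438 (1.83%, 0.792 to 3.57), 2 of them at Kdm6b, a histone demethylase gene. The intervals of these 3 lists hold the genome-wide share.

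Among signalling lists, the Notch pathway had 20 among 439 (4.56%, 2.80 to 6.95), at 9 of 19 genes, with 3 each at Notch1, Notch3, Numb and Maml3. The Hedgehog and retinoic acid list had 19 among 503 (3.78%), with 3 of 30 at Rara, 2 of 32 at Rarg and 2 of 21 at the Hedgehog receptor gene Ptch1. BMP and TGF-beta genes had 21 among 638 (3.29%), and Lefty1, a secreted inhibitor of Nodal, held 4 of 31, which fell to 1 without regions near a knockout day 5 peak. Wnt genes had 22 among 702 (3.13%), with 3 of 16 at the R-spondin receptor gene Lgr5, and FGF genes 12 among 404 (2.97%), with 3 at the receptor gene Fgfr2. All of these intervals hold the genome-wide share of 3.40%. Mitosis genes, where targets of cyclin-dependent kinases are found, had 17 among 437 (3.89%), with a region 372 bp from Ccna2 and one 865 bp from Ccnb2, both cyclin genes, and 2 of 15 at the kinase gene Plk1.

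The remaining lists were close to the genome-wide share or too small to place. Neuron genes had 15 among 383 (3.92%), with 3 of 68 at Rbfox3, and glia genes 7 among 259 (2.70%), with 2 at Olig1. Neural crest and epidermis genes had 10 among 211 (4.74%), with 3 at Zeb2, all of them within 1 kb of a knockout day 5 peak. Endoderm genes had 8 among 225 (3.56%), among them Afp and a region touching Sox17. Mesoderm genes had 8 among 273 (2.93%), with 2 at Eomes and 1 at an end of Hand1, trophoblast genes 7 among 213 (3.29%), with 2 at Gata3, and germ line genes 3 among 138 (2.17%), 1 of them at Mael. Housekeeping genes had 11 among 293 (3.75%), with 2 each at Tbp and Ywhaz, so a share at this level is also found at genes used in all cells. Of 19 regions at 2-cell-like genes 1 was a described one, at Usp17lc. Among the loci named from lists, other counts also depended on the setting: Kdm6b went from 2 to 0 and Rbfox3 from 3 to 1 without regions near a knockout day 5 peak, Notch1 from 3 to 1 with a reciprocal overlap of 50%, and Stat3 from 3 to 1 with peaks up to 500 bp apart joined. Further list genes with a described region within 1 kb of an end, besides those said above to have one, were Aldh1a1, Cdh20, Slit2, Sema6a, Gata3, Kdm6b, Lefty1, Rara, Ptch1 and Ywhaz.

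**Figure D5:**
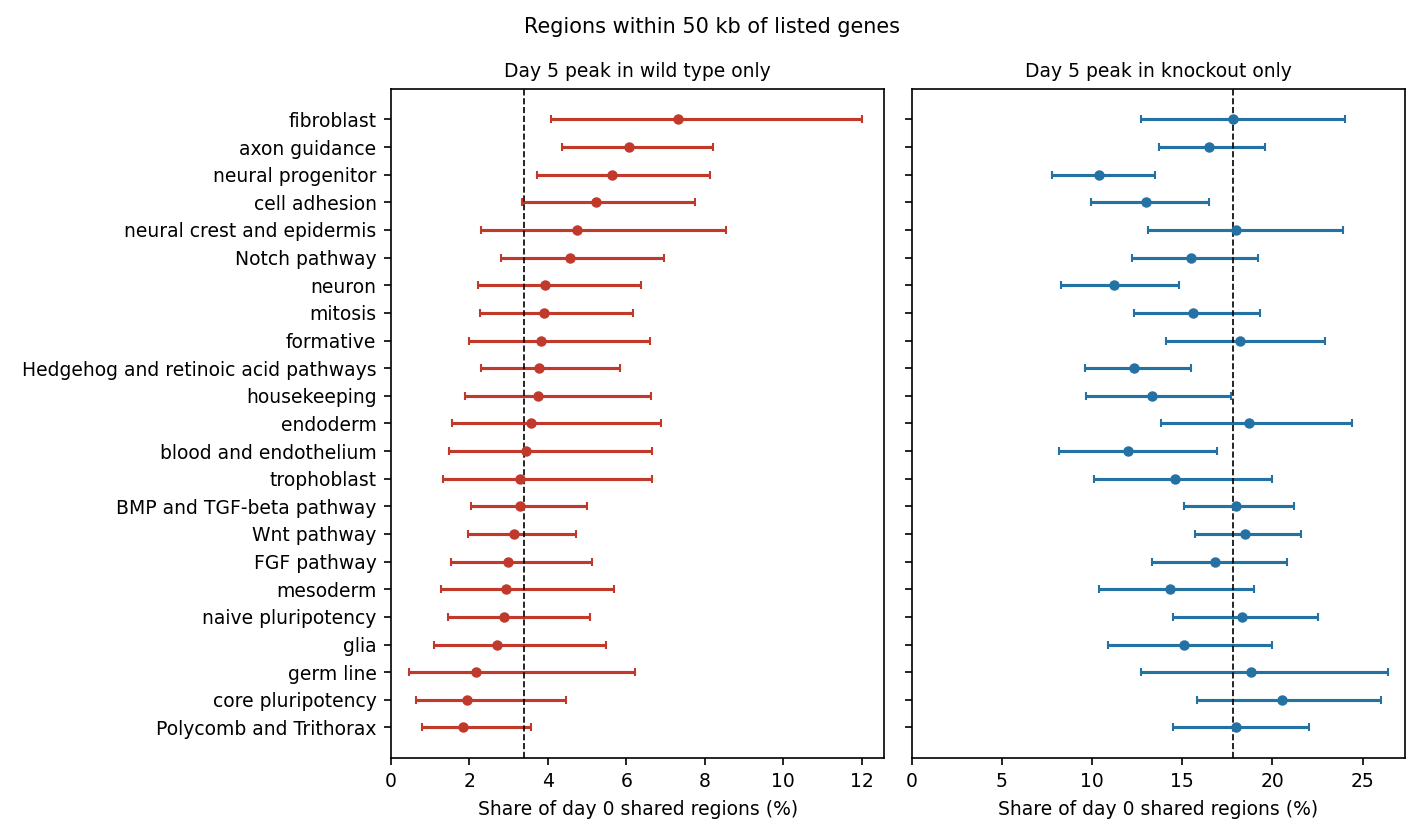
Share of day 0 shared regions (%) within 50 kb of the genes of 23 lists that were listed at day 5 in wild type only (left, the described regions) or in the knockout only (right). Bars are 95% exact intervals, counting error only, and dashed lines are the genome-wide shares. Intervals of the fibroblast, axon guidance and neural progenitor lists lie wholly above 3.40% on the left; the 2-cell-like list, with 19 regions, is not drawn.

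Genes with a start inside a described region were less often protein-coding than those with a start in a region listed in all 4 libraries. Of 17332 start windows inside day 0 shared regions, 164 (0.946%) lay in described regions, at 148 genes. Protein-coding genes were 60.1% of these (89 genes, with 59 lncRNA genes), against 80.4% for starts in regions listed in all 4 libraries. The share was lower in the other groups, 44.1% in knockout-only regions and 47.3% in those listed at day 5 in neither genotype. In 23 of the 89 coding genes another start lay in a region listed in all 4 libraries, as for Lhx3, Rarg, Sox6, Satb1 and Gnas. In 59 every listed start lay in a described region, as for Dbx1, Cdx4 and Trim71. Most of these genes, among them those named, have only 1 listed start, so for them this follows from the choice of genes. Trim71 encodes a stem cell RNA-binding ubiquitin ligase. Its start had 817, 881 and 819 bp of peak, with a knockout day 5 peak 947 bp away. Islr2, a neural membrane protein gene, had 750, 1326 and 640 bp at its start and a knockout day 5 peak 919 bp away. These genes were chosen after their values were seen.

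Promoter windows of 300 bases (250 before the start and 50 after) held fewer CpG dinucleotides in the described regions than in regions listed throughout. The median was 6 in 164 windows, against 19.0 in 16343 windows of regions listed in all 4 libraries, 5.00 in knockout-only regions and 4.00 in regions listed at day 5 in neither genotype. At least 10 were found in 30.5% (23.5 to 38.1) of the described windows, and in 77.5, 19.3 and 15.8% of the other groups in that order. Of the 5 printed starts, 4 belong to this minority: Pax6 has 18 in the window, Lhx3 28, Dbx1 15 and Rarg 10, and Cdx4 has 8. Over all 32817 windows, whether in a listed region or not, 43.4% held at least 10. The median of the described windows lay just below that of all windows. The windows of regions listed throughout stood further from all windows, on the high side. Compared with regions listed throughout, low CpG content was thus common to all 3 groups missing from a day 5 library, and the described starts had more than the other 2.

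The motifs searched on both strands of these windows were ATGCAAAT for octamer factors, ACAAAG or the longer AACAATGG for SOX factors, GGGTGTGGC for KLF factors, TCAAGGTCA for ESRRB, AGGTGGCAG for part of the CTCF motif, the E-box CAGCTG, another E-box with the letters CAGATG, the ZIC letters CAGCAGG, the AP-1 letters TGAGTCA, the TEAD letters GGAATG, the Gata family letters AGATAA, the LEF/TCF letters CTTTGAT, the RFX letters GTTGCCATG, the ETS letters CCGGAAGT, the NRF1 letters GCGCATGCG, the NFY letters CCAATCAG and the homeodomain letters TAATTA. No motif contains another, although matches can overlap in part. For 16 of the 18, the interval of the described windows held the share of all 32817 windows. ETS letters were an exception, in 1 window (0.610%, 0.0154 to 3.35), against 3.89% of all windows and 7.10% of windows listed throughout. ETS shares were also low in knockout-only windows (2.04%, 1.02 to 3.63) and in those listed in neither genotype (1.93%, 0.630 to 4.45). Homeodomain letters were the other exception, in 3 windows (1.83%, 0.379 to 5.25), against 5.30% of all windows and 2.48% of those listed throughout. They were in 4.65% of knockout-only windows and 8.88% of those listed at day 5 in neither genotype. The homeodomain interval holds the share of windows listed throughout. NRF1 letters were in 0 windows, with an exact interval of 0 to 2.22% (3 counts of 164, the limit that a count of 0 allows, are 1.83%), and in 1.75% of all windows. The octamer printed for Cdx4 was in 1.83% of the described windows and 1.74% of all. Each E-box was in 20.1% of the described windows, against 16.3 and 17.2% of all. The 164 described windows lie in 140 regions and some overlap, which the intervals for motifs and CpG do not take into account. A match is a run of letters and not a bound site.

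Of 1005 miRNA hairpins, 6 lay in or touched a described region, 167 a region listed in all 4 libraries, 24 a knockout-only region and 11 one listed at day 5 in neither genotype. These groups, as just ordered, make up 3.40, 67.4, 17.8 and 11.4% of all day 0 shared regions. The 6 hairpins are therefore not read as a result about the described regions. They were Mir7006, Mir3092, Mir692-2, Mir34a, Mir6540 and Mir6985. Mir34a, a target of p53 that restrains the cell cycle and stem cell renewal, was chosen after its position was seen. Its mature sequences from RefSeq are printed with the seed, bases 2 to 8, in capitals, and come from chr4:150068473-150068494 and chr4:150068517-150068537 on the plus strand, inside the described region chr4:150068016-150068917.
mmu-miR-34a-5p: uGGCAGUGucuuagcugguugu
mmu-miR-34a-3p: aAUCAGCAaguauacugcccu
The other 7 mature miRNAs of these hairpins have different seeds from these and from each other. A peak over a hairpin says that its DNA was accessible, not that the miRNA was made.

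The widest described regions, by the peak length averaged over the 3 libraries, were distal or within genes. The region in Acap2 (chr16:31187872-31190066) held 1744, 1247 and 1899 bp of peak (wild type day 0, knockout day 0, wild type day 5), with a knockout day 5 peak 1453 bp away. One near Rrp1b held 1652, 1723 and 1513 bp in the same order, and one near Spata5 1423, 1257 and 1835 bp, the latter with the nearest knockout day 5 peak 7738 bp away. The others of the 8 lay in Adhfe1, Slc20a2 and Plxna4 and near Myt1l and 1810013L24Rik, where Myt1l, a neuronal repressor gene, was 268667 bp away. These regions join 5 or 6 peaks each, and wild type at day 5 had the most bases in 4 of the 8.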

How the data were processed

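The authors deposited 1 peak list per library, giving chromosome, start and end of each accessible region on mm10 with no measure of signal. Each list was made separately by Cell Ranger ARC 2.0.0 against mm10, per the file headers, and Scanpy 1.7.2 also appears in the submitters' processing notes. The cell-by-cell and RNA data were not used here, whether doublets were removed is not given in the sources used here, no doublet caller was run, and read depth is unknown. Peaks overlapping by at least 1 bp were joined across libraries. Gene spans (21887 protein-coding genes), 32851 start windows at 27025 genes, and sequences came from RefSeq tables on GRCm38.p6, which are not complete. All 418 listed genes matched. No genome sequence was used, so no sequence of a distal region was read.

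With 1 library per group there is no test. Intervals of shares are 95% exact (Clopper-Pearson) ones for counting error alone, and regions are not replicates. The members and gene lists were chosen with earlier results of these data known. Genes were named by rule: the 15 loci with the most regions and the 10 with the largest share (1 per 500 kb), the top gene of each list, list genes with a region within 1 kb of an end or over a start, the 5 longest runs (ties by span, a choice added later) and the 8 widest regions. Other genes named were chosen after their values were seen, and some loci that meet the rule are not reported here. Alternatives covered the joining of peaks, the number and width of peaks, the distance to a knockout peak, autosomes only and the windows. The joining and counting steps were tested on simulated data. Python 3.11.15, numpy 2.4.6, pandas 2.3.3, scipy 1.17.1 and matplotlib 3.10.9 were used.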

Additional observations from a re-analysis of the deposited data

How the results depend on the processing

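Of the 53 values of the main results under alternatives, 32 moved beyond counting error or, for counts, by over 1.5 times, and 21 did not. The number of regions was 10852 with the 189571 widest peaks of each library, 3638 without regions that had a knockout day 5 peak within 1 kb, and 24418 with no requirement on wild type at day 5, an alternative chosen after seeing the data. Their share of day 0 shared regions was 7.45, 2.21 and 14.8% in these settings, 3.55% with a reciprocal overlap of 50% and 3.15% with peaks up to 500 bp apart joined. The share at gene ends was 12.2% with the widest peaks, 6.60% without regions near a knockout peak, 5.30% within 500 bp, 2.78% over the end base and 5.25% at transcription starts. The share on X was 1.57, 0.715 and 1.49% (widest peaks, no near knockout peak, no requirement on wild type at day 5). The median width of wild-type day 0 peaks was 856 bp (reciprocal overlap), 865 bp (peaks joined), 842 bp (widest peaks) and 871 bp (no near knockout peak). A knockout day 5 peak lay within 5 kb of 83.8, 78.4 and 80.9% (reciprocal overlap, peaks joined, widest peaks), within 1 kb of 35.1% and within 20 kb of 96.8%. Loci with at least 3 regions numbered 359 with peaks joined, 2682 with the widest peaks, 181 without regions near a knockout peak, 119 in the gene alone and 167 with 10 kb on each side. Loci with at least 2 numbered 2287 and with at least 5 numbered 33. Where the setting itself does not add or remove regions, the cause was not tested. Of 432 values of single loci and lists, 349 stayed within these limits and 83 moved. No paired analysis was possible because each group has 1 library and no result comes from a test. Without read counts, a region without a listed peak cannot be told from one too shallowly read.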
